A study of Mus musculus with 4 samples.

Results

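The genes described here were 37 transcription factors of forebrain excitatory neurons and cortical layers, chosen by name. The factors and their layer groups were chosen with earlier results of these data known, so counts by group are descriptive. Of these, 36 were measured, because Bhlhe22 had no probe set with a single gene symbol in the annotation used here. They were 36 of 19938 genes on Affymetrix mouse Gene 1.0 ST arrays, which read each gene with short probes spread along the whole transcript, and 31 of the 36 were read by 1 probe set and 5 by more than 1. For description they were divided into 12 pan-excitatory factors, 7 measured upper-layer factors, 9 deep-layer factors and 8 factors of mixed layer placement. The pan-excitatory group also takes in general neuronal factors such as Myt1l, so its values are not particular to excitatory neurons.

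Cultures of cortical neurons came from pups on postnatal day 0, of mixed SV129 and C57BL/6 strain. The labels name Syt1-deficient as well as wild-type pups (Syt1 is a calcium sensor of synaptic vesicles) but do not tie the genotype to an array. The knockdown group (2 samples) carried lentiviral shRNAs against the calmodulin genes, the rescue group (2 samples) carried those shRNAs with an shRNA-resistant wild-type calmodulin, and the control cultures carried control lentivirus. Neurons were infected at 5 days in vitro and harvested at 14 to 15 days, and every culture had been grown with serum, B27 and Ara-C, which blocks cell division. Each deposited value was the ratio of a test array to the control array of the same repeat, so all values below are log2 ratios to control, where 0 is the control level. Ratios hold no intensity, and neither the level of a gene nor the presence of the labelled cell type could be read from them.

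Excitatory projection neurons of the cortex are made by dorsal progenitors through a relay of factors, in which the basic helix-loop-helix (bHLH) factor Neurog2 commits the cell, the T-box factor Eomes marks the intermediate progenitor and the NeuroD factors, also bHLH proteins, drive differentiation. Layer factors then divide the postmitotic neurons into upper-layer cells that project within the cortex and deep-layer cells that project to the thalamus, brainstem and spinal cord. MEF2 factors stand at the end of calcium signalling: calcineurin, a phosphatase that calmodulin activates, and calmodulin-dependent kinases both act on MEF2 or on the histone deacetylases that bind it.

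The knockdown could be checked on the calmodulin genes Calm2 and Calm3. Calm2 lay at -1.08 and -1.72 in the knockdown repeats and at -0.84 and -1.28 in the rescue repeats, and Calm3 at -1.32 and -2.40 in the knockdown, against -2.41 and -3.55 in the rescue. Both groups were thus below control in every sample at these genes, and Calm2 fell in the knockdown (limma adjusted p = 0.0297). Whether the probe sets also read the resistant calmodulin was not tested. Values were most widely spread in knockdown repeat 2, with a standard deviation over all genes of 0.349 against 0.232 to 0.243 in the other 3 samples, and over the 36 factors of 0.549 against 0.230 to 0.308. Results that rest on that sample are given with and without it.

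The promoters of 4 factors that the results turn on are shown before the values, since 3 of them (Neurod6, Neurod1 and Mef2c) were among the 5 lowest factors in the knockdown while Neurod2, a close relative of the other NeuroD genes, lay nearer to control. Each is the 250 bases before a RefSeq start site on GRCm38.p6. Capitals mark CAGATG, an E-box form that NeuroD factors bind, and TGACG, the core of the cyclic AMP response element, on either strand.
Neurod6 (chr6:55681264-55681513, strand minus): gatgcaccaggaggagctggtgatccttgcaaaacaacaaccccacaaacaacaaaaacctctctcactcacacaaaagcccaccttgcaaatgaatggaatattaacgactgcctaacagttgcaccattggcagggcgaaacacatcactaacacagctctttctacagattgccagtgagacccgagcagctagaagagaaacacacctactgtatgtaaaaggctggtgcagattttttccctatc
Neurod1 (chr2:79456637-79456886, strand minus): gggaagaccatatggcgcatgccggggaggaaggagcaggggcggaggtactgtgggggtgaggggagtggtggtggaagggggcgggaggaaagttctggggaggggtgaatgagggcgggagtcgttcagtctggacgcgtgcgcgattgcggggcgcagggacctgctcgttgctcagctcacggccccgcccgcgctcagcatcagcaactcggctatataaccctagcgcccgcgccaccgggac
Neurod2 (chr11:98329646-98329895, strand minus): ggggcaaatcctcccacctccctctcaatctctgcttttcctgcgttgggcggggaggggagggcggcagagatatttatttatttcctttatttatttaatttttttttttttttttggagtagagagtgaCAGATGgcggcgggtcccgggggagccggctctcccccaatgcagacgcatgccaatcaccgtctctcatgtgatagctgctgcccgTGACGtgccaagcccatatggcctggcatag
Mef2c (chr13:83573357-83573606, strand plus): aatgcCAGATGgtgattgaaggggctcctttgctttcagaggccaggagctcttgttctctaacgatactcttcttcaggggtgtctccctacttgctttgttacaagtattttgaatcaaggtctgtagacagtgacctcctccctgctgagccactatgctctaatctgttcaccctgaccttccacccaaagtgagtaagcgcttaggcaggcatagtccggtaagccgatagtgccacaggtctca

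The windows of Neurod6 and Neurod1 held none of the motifs searched. Neurod2 held CAGATG at bases 133 to 138 and TGACG at bases 220 to 224, counted from the 5′ end. Mef2c had 3 start site windows, of which the one printed held CAGATG at bases 6 to 11. The windows of Mef2c that are not printed held none of the motifs searched. RefSeq windows were matched by symbol for 31 of the 37 factors. CAGATG was found in at least 1 window of 7 of these 31 (22.6%), against 16.3% of the 27025 genes with a window. The E-box form CAGCTG was found in 4 of 31 (12.9%, against 14.7%), TGACG in 5 of 31 (16.1%, against 19.8%), the full element TGACGTCA, which contains TGACG, in 0 of 31 (against 1.77%) and the MEF2 consensus in 1 of 31 (3.23%, against 3.42%). A match describes letters in a window and is not evidence of binding.

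The first comparison asked how the factors stood in the knockdown relative to control. Of the pan-excitatory factors, 11 of 12 lay below control in both knockdown repeats, where 31.1% of all genes did, and the layer factors lay on both sides of it. The count takes in values close to control. These were Neurog2 at -0.0015 in repeat 2, and Eomes at -0.01, Mef2a at -0.02 and Neurod2 at -0.05 in repeat 1. Neurod6 was lowest, at 0.320 times the control level, followed by Myt1l (0.528 times), Bcl11a (0.551 times), Mef2c (0.593 times) and Neurod1 (0.613 times). Mean values of -0.5 or lower were found for 6 factors (16.7%, against 3.31% of all genes), these 5 and Tbr1, and of 0.5 or higher for 0 (against 1.6%). None of these passed the test. Over all genes, limma with Benjamini-Hochberg adjustment called 61 of 19938 genes (0.306%), and 0 of the 36 factors, with 10 factors (27.8%) lower and 0 higher at an unadjusted p under 0.05, where 9.04% of all genes were lower and 6.93% higher.

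Sample titles of each repeat share a number that the titles do not explain, so the repeat was also entered as a block. This blocked fit called 5.39% of all genes. It called 6 of the 36 factors lower (16.7%, against 3.48% of all genes) and 0 higher (against 1.91%), and the 6 were Neurod6, Neurod1, Emx1, Bcl11a, Myt1l and Mef2c, all of the pan-excitatory group. For a ratio to control this block also takes out the difference between the 2 control arrays, so its p-values leave that spread out. Both fits are given below for that reason.

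**Figure D1:**
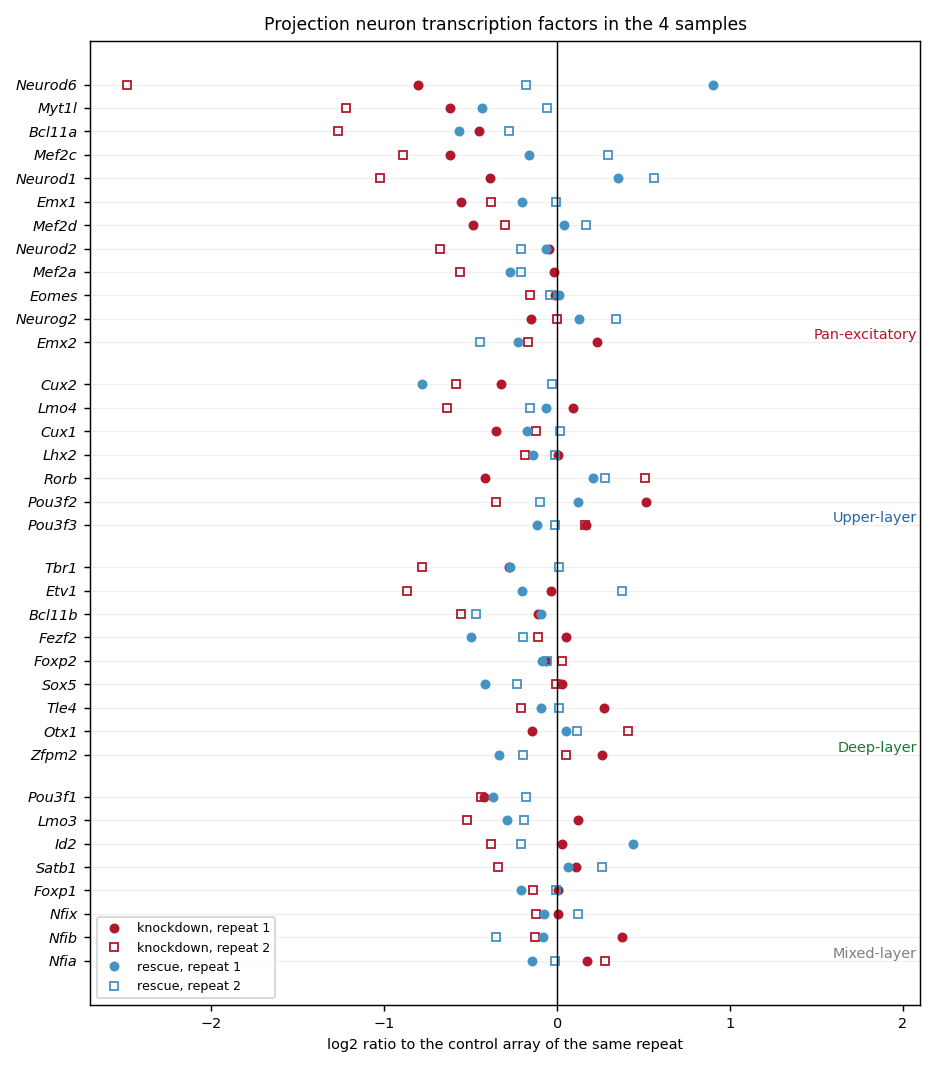
Log2 ratio to control (x axis) of the 36 measured factors (rows, by layer group and by mean in the knockdown), with 1 point per sample; red points are knockdown, blue points rescue, filled circles repeat 1 and open squares repeat 2. Neurod6 in knockdown repeat 2 is the lowest point at -2.49, and most layer factors lie within 0.5 of control.

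Among the bHLH factors, Neurod6, a factor of differentiating and mature pyramidal neurons, lay at -0.81 and -2.49 in the knockdown repeats (mean -1.65, SE 0.37, n = 2, limma adjusted p = 0.103; 0.00120 with the block). In the rescue it lay at 0.90 and -0.18. Both knockdown samples were below both rescue samples, and the knockdown repeats differed from each other more than for any other of the factors. Neurod1, which drives neuronal differentiation and survival, lay at -0.39 and -1.03 in the knockdown (mean -0.71, SE 0.16, limma adjusted p = 0.108; 0.0336 with the block) and at 0.35 and 0.56 in the rescue. It was thus below control in both knockdown samples and above it in both rescue samples. Neurod2, which is activated through calcium entry and shapes thalamocortical synapses, lay at -0.05 and -0.68 in the knockdown and at -0.06 and -0.21 in the rescue, so that knockdown repeat 1 stood at control and its mean of -0.36 (SE 0.16, limma adjusted p = 0.322; 0.110 with the block) rested on repeat 2.

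The factors of earlier steps of the relay lay close to control. Neurog2, the proneural factor of dorsal progenitors, lay at -0.15 and -0.0015 in the knockdown and at 0.13 and 0.34 in the rescue. Eomes, the T-box factor of intermediate progenitors, lay at -0.01 and -0.15 in the knockdown and at 0.01 and -0.04 in the rescue. The 95% interval of a mean in the limma fit, which is wide with 2 samples, was -2.50 to -0.80 for Neurod6 in the knockdown and -1.08 to -0.33 for Neurod1.

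Among the other pan-excitatory factors, Myt1l, a zinc finger protein that represses non-neuronal genes, lay at -0.62 and -1.22 in the knockdown and at -0.43 and -0.06 in the rescue (knockdown mean -0.92, SE 0.17, limma adjusted p = 0.0737; 0.0202 with the block). Bcl11a, a zinc finger repressor of postmitotic cortical neurons, lay at -0.46 and -1.27 in the knockdown (mean -0.86, SE 0.19, limma adjusted p = 0.0986; 0.0296 with the block). In the rescue Bcl11a lay at -0.57, between the knockdown values, and -0.28, so its groups overlapped, whereas those of Myt1l did not. Emx1, a homeobox factor of the dorsal telencephalon, lay at -0.55 and -0.38 in the knockdown and at -0.20 and -0.01 in the rescue (knockdown mean -0.47, SE 0.12, limma adjusted p = 0.135; 0.0399 with the block). Its relative Emx2 lay on both sides of control in the knockdown, at 0.23 and -0.17, and at -0.22 and -0.45 in the rescue, where both values were below those of the knockdown.

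The 3 MEF2 genes, calcium-regulated factors of synapse number and survival, all had a mean below control in the knockdown. Mef2c, which cortical excitatory neurons express strongly, lay at -0.62 and -0.89 in the knockdown and at -0.16 and 0.29 in the rescue (knockdown mean -0.75, SE 0.15, limma adjusted p = 0.0837; 0.0231 with the block). Mef2d lay at -0.49 and -0.30 in the knockdown and at 0.04 and 0.17 in the rescue (knockdown mean -0.39, SE 0.12, limma adjusted p = 0.183; 0.0649 with the block), and its 2 probe sets gave knockdown means of -0.30 and -0.49. Mef2a, at -0.02 and -0.56 in the knockdown, against -0.27 and -0.21 in the rescue, had groups that overlapped. Knockdown and rescue samples stood apart for Mef2c and Mef2d, with every knockdown value the lower.

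Emx2 was thus the 1 pan-excitatory factor that was not below control in both knockdown repeats. Over the 36 factors 17 were (47.2%, against 31.1% of all genes), with 3 (8.33%) above control in both, against 30.5% of all genes. The pan-excitatory median was -0.43 in the knockdown, at -0.42 in repeat 1 and -0.62 in repeat 2, and -0.06 in the rescue, at -0.11 in repeat 1 and -0.05 in repeat 2. The median over all genes was 0.00 in the knockdown (-0.02 and 0.02 in the repeats). In the rescue 6 of the 12 were below control in both repeats and 3 above.

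**Figure D2:**
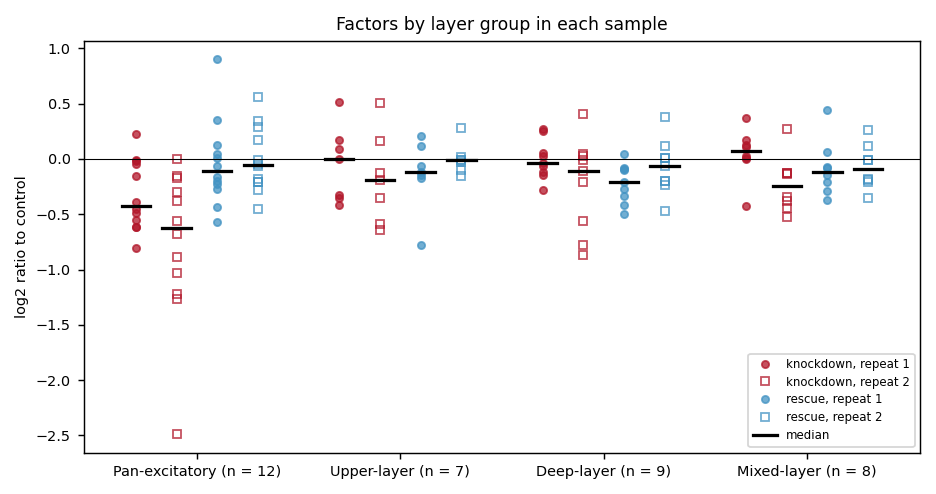
Log2 ratio to control (y axis) of each factor in each sample, by layer group (x axis; n is the number of measured factors); red is knockdown, blue rescue, filled circles repeat 1, open squares repeat 2, and bars are medians over the factors of a group. The pan-excitatory medians are -0.42 and -0.62 in the knockdown repeats, and the medians of the other groups lie between -0.24 and 0.07 in the knockdown.

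Upper-layer factors had a knockdown median of -0.09, at 0.0019 in repeat 1 and -0.19 in repeat 2, and a rescue median of -0.08. Cux1, a homeobox factor of dendrite growth, lay at -0.35 and -0.12 in the knockdown and at -0.18 and 0.01 in the rescue. Its relative Cux2 lay at -0.33 and -0.59 in the knockdown (mean -0.46, SE 0.18, limma adjusted p = 0.270) and at -0.78 and -0.03 in the rescue, so rescue repeat 1 was the lowest of the 4. These were the 2 of 7 upper-layer factors below control in both knockdown repeats.

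The POU factor Pou3f3, which with Pou3f2 specifies upper-layer neurons, lay at 0.17 and 0.16 in the knockdown and at -0.12 and -0.01 in the rescue. Pou3f2 lay at 0.52 and -0.36 in the knockdown and at 0.12 and -0.10 in the rescue, and its 2 probe sets did not run together (0.81 and 0.22 in knockdown repeat 1, -0.76 and 0.05 in knockdown repeat 2). Rorb, an orphan receptor of the layer that takes thalamic input, lay at -0.42 and 0.51 in the knockdown and at 0.21 and 0.28 in the rescue. Knockdown values of Pou3f2 and Rorb thus spanned their rescue values. Lmo4, a LIM-only cofactor of callosal neurons, lay at 0.09 and -0.64 in the knockdown and at -0.06 and -0.16 in the rescue, and Lhx2, a LIM homeobox factor of cortical progenitors and upper layers, lay between -0.19 and 0.0019 in all 4 samples.

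Deep-layer factors had a knockdown median of -0.02, at -0.04 in repeat 1 and -0.11 in repeat 2, and a rescue median of -0.13. Of 9, 3 were below control in both knockdown repeats. Tbr1, the T-box factor of corticothalamic neurons, was the lowest by mean, at -0.28 and -0.78 in the knockdown, against -0.27 and 0.01 in the rescue (knockdown mean -0.53, SE 0.15, limma adjusted p = 0.163; 0.0657 with the block). Etv1, an ETS factor of deep output neurons, lay at -0.04 and -0.87 in the knockdown and at -0.20 and 0.38 in the rescue, and its 2 probe sets had opposite signs in knockdown repeat 1 (0.20 and -0.27). Bcl11b, which directs axon growth of corticospinal neurons, lay at -0.11 and -0.56 in the knockdown and at -0.10 and -0.47 in the rescue, so both groups held 1 value near control and 1 lower, both lower ones in repeat 2.

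Fezf2, the selector of subcerebral projection neurons that acts upstream of Bcl11b, lay at 0.05 and -0.11 in the knockdown and at -0.50 and -0.20 in the rescue. Sox5, a timer of deep-layer production, lay at 0.02 and -0.01 in the knockdown and at -0.42 and -0.24 in the rescue, and Zfpm2, a cofactor of corticothalamic fate, at 0.26 and 0.05 in the knockdown, against -0.34 and -0.20 in the rescue. For these 3 factors both rescue samples were below both knockdown samples, as they were for 16.5% of all genes. Foxp2, a forkhead factor of corticothalamic neurons, stayed between -0.09 and 0.02 in all 4 samples, and its 95% interval in the knockdown ran from -0.29 to 0.25. Tle4, a corepressor of deep-layer neurons, lay at 0.27 and -0.21 in the knockdown and at -0.09 and 0.01 in the rescue, and Otx1, a homeobox factor of deep-layer axon refinement, at -0.15 and 0.41 in the knockdown, against 0.05 and 0.11 in the rescue.

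**Figure D3:**
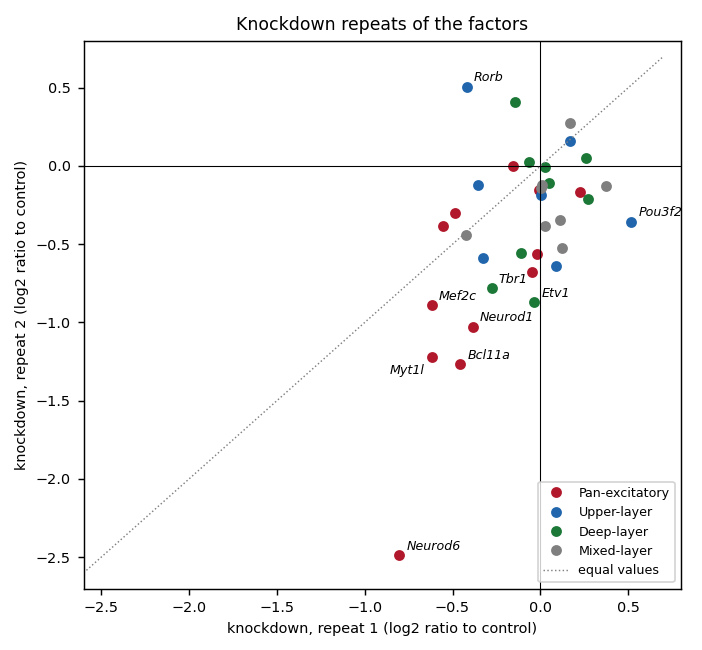
Log2 ratio to control of each factor in knockdown repeat 1 (x axis) against knockdown repeat 2 (y axis), 1 point per factor, coloured by layer group, with a dotted line of equal values and names at points far from it or low in repeat 2. Neurod6 lies at -0.81 and -2.49, and the named pan-excitatory factors lie below the dotted line.

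The 8 factors of mixed placement had a knockdown median of -0.09, at 0.07 in repeat 1 and -0.24 in repeat 2, and a rescue median of -0.09. Pou3f1, found in both upper-layer and corticospinal neurons, was the 1 of 8 below control in both knockdown repeats, at -0.43 and -0.44, with -0.37 and -0.18 in the rescue (knockdown mean -0.43, SE 0.12, limma adjusted p = 0.147; 0.0533 with the block). Nfia, a nuclear factor I protein that also drives the making of astrocytes, was above control in both knockdown repeats, at 0.17 and 0.27, with -0.15 and -0.01 in the rescue. Its 2 probe sets had knockdown means of 0.37 and 0.07.

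Its relative Nfib lay at 0.37 and -0.13 in the knockdown and at -0.08 and -0.36 in the rescue. Nfix lay between -0.12 and 0.12 in all samples. Satb1, a chromatin organizer of cortical neurons, lay at 0.11 and -0.34 in the knockdown and at 0.06 and 0.26 in the rescue, and Foxp1, a forkhead factor of projection and striatal neurons, at 0.0020 and -0.14 in the knockdown, against -0.21 and -0.0048 in the rescue. The LIM-only gene Lmo3 lay at 0.12 and -0.52 in the knockdown and at -0.29 and -0.19 in the rescue. Id2, an inhibitor of bHLH factors, lay at 0.03 and -0.38 in the knockdown and at 0.44 and -0.21 in the rescue. For Satb1, Foxp1, Lmo3 and Id2 the knockdown was above control in repeat 1 and below it in repeat 2.

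Knockdown repeat 2 was below knockdown repeat 1 for 28 of the 36 factors (77.8%), against 46.7% of all genes, and the repeats lay more than 0.5 apart for 14 factors (38.9%, against 12.2%). With repeat 2 alone to stand for the knockdown, 9 factors were called lower, namely Neurod1, Neurod2, Neurod6, Bcl11a, Myt1l, Mef2c, Lmo4, Tbr1 and Etv1 (25%, against 6.38% of all genes in either direction), and with repeat 1 alone 0 were. The pan-excitatory median was -0.42 with repeat 1 alone.

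The rescue was compared with control to ask how near to control the factors lay once a resistant calmodulin was supplied. Limma called 0 of 19938 genes (0%; 1484 genes, or 7.44%, at an unadjusted p under 0.05) and 0 of the 36 factors. The smallest limma adjusted p over all genes was 0.154. Even the targeted gene Calm2, at -0.84 and -1.28 in the rescue, was not called (limma adjusted p = 0.414). A lack of calls here therefore does not show that a gene lay at control. In the blocked fit 25 genes (0.125%) and again 0 of the factors were called. At an unadjusted p under 0.05, Neurod1 was higher (1 of 36 factors, 2.78%, against 2.95% of all genes) and Emx2, Fezf2 and Sox5 were lower (3 of 36, 8.33%, against 4.49%). Neurod1 had a rescue mean of 0.45 (SE 0.16, n = 2, limma adjusted p = 0.613), Fezf2 one of -0.35 (SE 0.13, adjusted p = 0.613), Emx2 one of -0.34 (SE 0.14, adjusted p = 0.661) and Sox5 one of -0.33 (SE 0.12, adjusted p = 0.613). Both rescue samples were below control for 20 of the 36 factors (55.6%), against 29.8% of all genes, and above it for 6 (16.7%), against 24.9%. Rescue means lay between -0.42 (Bcl11a) and 0.45 (Neurod1), and knockdown means between -1.65 and 0.22. The largest rescue means were thus close in size to some knockdown means, such as that of Emx1 (-0.47). Knockdown and rescue ratios of a repeat share their control array, so a likeness between them is not a separate observation.

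The knockdown was also compared with the rescue, where both groups carry the shRNAs and the control array of a repeat cancels in the mean difference. It does not cancel in the SE and p-values of the fit without the block, which ignore the pairing within a repeat. For Neurod6 the SE of the difference was 0.52 in that fit and 0.18 with the block. Limma called 14 genes (0.0702%) and 0 of the 36 factors, with 5 factors lower (13.9%, against 4.01% of all genes) and 1 higher (2.78%, against 2.81%) at an unadjusted p under 0.05. Neurod6 differed by -1.71 and -2.31 within the repeats, a mean difference of -2.01 (SE 0.52, n = 2 per group, limma adjusted p = 0.351). In the blocked fit it was called (adjusted p = 0.00569), the 1 factor lower there, where 0.431% of all genes were lower. That fit called 0 factors higher (against 0.186%), and 0.617% of all genes in either direction. Neurod1 differed by -0.74 and -1.59 within the repeats (mean -1.16, SE 0.23, limma adjusted p = 0.213; 0.0551 with the block), with the same sign in both repeats, as for Neurod6.

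Mef2c differed by -0.46 and -1.18 (mean -0.82, SE 0.21, limma adjusted p = 0.342; 0.117 with the block). Mef2d differed by nearly equal amounts in the repeats, -0.53 and -0.47 (mean -0.50, SE 0.17, limma adjusted p = 0.528; 0.206 with the block), as did Emx1, with -0.35 and -0.38. Myt1l differed by -0.19 and -1.16 (mean -0.67, SE 0.24, limma adjusted p = 0.559; 0.259 with the block) and Bcl11a by 0.12 and -0.99, so the sign of Bcl11a changed between repeats. In the other direction, Zfpm2 was 0.59 and 0.25 higher in the knockdown (mean 0.42, SE 0.17, limma adjusted p = 0.685; 0.346 with the block). With knockdown repeat 2 alone, 4 factors were called lower than in the rescue, namely Neurod1, Neurod6, Myt1l and Mef2c (1.76% of all genes were called in either direction).

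**Figure D4:**
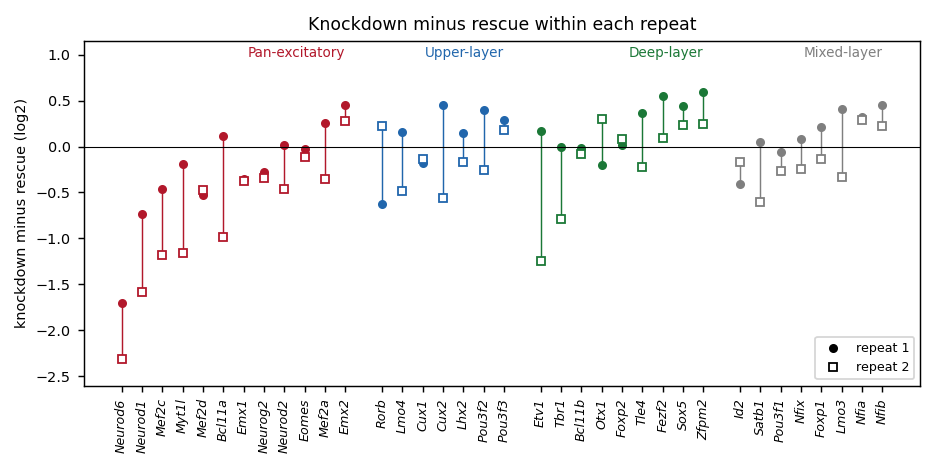
Difference of the log2 ratios, knockdown minus rescue (y axis), within repeat 1 (filled circles) and repeat 2 (open squares) for each factor (x axis), joined by a line and coloured by layer group. Neurod6 differs by -1.71 and -2.31. The deep-layer factors Fezf2, Foxp2, Sox5 and Zfpm2 lie above 0 in both repeats, as do 30.1% of all genes.

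Sample by sample, both knockdown samples were below both rescue samples for 9 factors (25%, against 15.1% of all genes), 7 of them pan-excitatory, with Tbr1 and Pou3f1 the others. Both knockdown samples were above both rescue samples for 6 (16.7%, against 16.5%). Within both repeats, the knockdown was below the rescue for 13 factors (36.1%, against 24.3% of all genes) and above it for 8 (22.2%, against 30.1%). For 6 factors (16.7%, against 8.87%) both knockdown samples lay on 1 side of control and both rescue samples on the other, and these were Neurod1, Neurog2 and Mef2d, lower in the knockdown, and Pou3f3, Zfpm2 and Nfia, higher in it. Of the pan-excitatory factors, 8 of 12 were lower in the knockdown within both repeats, and of the deep-layer factors 2 of 9 were lower and 4 higher. The median difference was -0.40 for pan-excitatory factors (-0.23 and -0.47 within the repeats), -0.05 for upper-layer factors (0.15 and -0.17), 0.05 for deep-layer factors (0.17 and 0.09) and -0.02 for mixed factors (0.15 and -0.21), against 0.02 over all genes. No test between these lists was made.

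Relatives of the factors outside the list had a median close to control, with knockdown means from -0.50 to 0.38. In both knockdown samples 11 of them lay above control and 5 below it, against 30.5% and 31.1% of all genes. Of 28 paralogues named for this purpose 26 were measured, 0 passed in any comparison, 13 were below and 13 above control in the knockdown by mean, and the median was 0.02 in the knockdown and -0.06 in the rescue. Neurod4 lay at -0.03 and -0.10 in the knockdown, against 0.01 and -0.16 in the rescue, and Neurog1 at 0.03 and 0.36 in the knockdown, against 0.23 and -0.0037 in the rescue. Transcription factors of the interneuron lineage, 17 of 20 measured, had a median of -0.14 in the knockdown and -0.24 in the rescue, with 0 called by limma (2 lower in the knockdown in the blocked fit, Dlx5 and Dlx6, named after their values were seen). The pan-excitatory factors had -0.43 in the knockdown and -0.06 in the rescue, and the difference between these lists was not tested.

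Of 10 genes of excitatory neurons that are no transcription factors, 6 lay below control in both knockdown samples and 1 above it in both. The list had a median of -0.62 in the knockdown (-0.39 and -0.66 in the repeats) and 0.01 in the rescue, and 0 were called by limma (6 lower and 1 higher in the knockdown, and 1 lower in the rescue, in the blocked fit). Slc17a7, the main vesicular glutamate transporter of the cortex, lay at -0.57 and -1.04 in the knockdown and at -0.06 and -0.17 in the rescue. Slc17a6, its counterpart in subcortical and immature neurons, was above control in every sample, at 0.66 and 1.42 in the knockdown, against 1.61 and 0.62 in the rescue. Upper-layer genes that are no transcription factors (9 measured) had a knockdown median of -0.35, and 1 of them, Mdga1, an adhesion protein of migrating upper-layer neurons, fell in the knockdown (-0.85 and -1.48, mean -1.17, SE 0.16, limma adjusted p = 0.0415), with -0.05 and -0.30 in the rescue. The 12 deep-layer genes of the same kind had a median of -0.05, with 0 called by limma (1, Crym, lower in the blocked fit).

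In a mixed culture, fewer cells of a type and less RNA per cell cannot be told apart, and marker genes of other cells also stood off control in these arrays. All 10 astrocyte markers were above control in both knockdown samples (medians 0.27 and 0.37), with medians of -0.08 and -0.03 in the rescue and 0 called by limma (3 higher in the blocked fit). Among them Gfap lay at 0.28 and 0.41 in the knockdown, against -0.46 and -0.31 in the rescue. The 11 measured interneuron markers had medians of -0.01 and -0.88 in the knockdown, against -0.41 and -0.58 in the rescue. The blocked fit called 5 of them lower in the knockdown and 1 in the rescue. Gad1, which makes GABA, lay at -0.65 and -1.14 in the knockdown and at -0.84 and -0.91 in the rescue, and was called lower in both groups in the blocked fit (adjusted p = 0.00941 for the knockdown and 0.0481 for the rescue). From that list Cck, a neuropeptide gene that cortical excitatory neurons also express, fell in the knockdown (-0.99 and -1.51, mean -1.25, SE 0.15, limma adjusted p = 0.0219), with 0.29 and 0.24 in the rescue.

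Microglial markers (10 genes) had medians of -0.29 and -0.02 in the knockdown, against -0.34 and -0.18 in the rescue, and vascular and fibroblast markers (10 genes) -0.06 and 0.42 in the knockdown, against -0.06 and -0.01 in the rescue. Oligodendrocyte lineage markers (9 measured) had medians of 0.03 and 0.18 in the knockdown, against -0.09 and -0.15 in the rescue. Markers of dividing progenitors (9 measured) had medians of -0.02 and 0.31 in the knockdown, against -0.09 and 0.05 in the rescue. No marker of these 4 lists was called in any comparison. The part of cell composition in the values of the 36 factors was not tested.

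**Figure D5:**
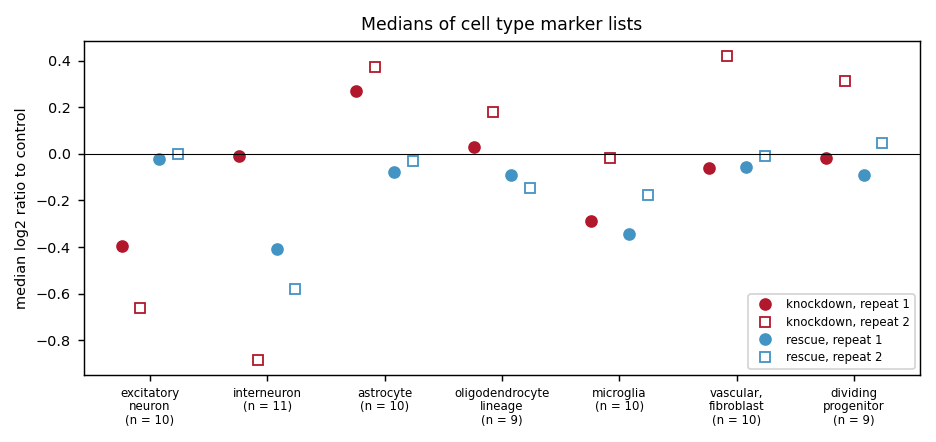
Median log2 ratio to control (y axis) of 7 lists of cell type marker genes (x axis; n is the number of measured genes) in each sample; red is knockdown, blue rescue, filled circles repeat 1, open squares repeat 2. Excitatory neuron genes have medians of -0.39 and -0.66 in the knockdown, and astrocyte genes 0.27 and 0.37.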

How the data were processed

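Affymetrix mouse Gene 1.0 ST arrays measured RNA of 2 knockdown and 2 rescue samples. The authors deposited linear ratios of each test array to the control array of its repeat, per the series design text. Background correction, summarization, normalization and genome build are details not given in the sources used here, and no intensities were analysed. The precision is limited by how few arrays there are. The 2 control arrays were not analysed here.

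Of 35399 probe sets, GEO's platform annotation gave 21789 exactly 1 symbol. Ratios were put on the log2 scale and averaged per symbol (19938 genes), without centring. Testing used limma 3.58.1 under R 4.3.3 (two-sided, a coefficient per group, all 4 samples, 2 residual and 6.11 prior degrees of freedom), with Benjamini-Hochberg adjustment over all genes at 0.05. The fit was tested on simulated data. The factors, layer groups and lists were chosen with earlier results of these data known. All 37 factors could be named, and of other lists the first 2 measured genes and those past the threshold. Not all of these genes were printed. Dlx5, Dlx6, Hdac9 and Hdac4 fell outside this rule and were named after their values were seen. Titles of same-numbered samples share an unexplained number. Deviations of these samples from group means correlated at 0.305 across genes, so the repeat was used as a block in a second fit. The labels do not call the repeats separate cultures, so a p-value here takes in only the variation among the 4 samples, possibly technical. Quantile normalization, centring, single probe sets, robust shrinkage, other gene sets and leaving out each sample were also tried.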

Additional observations from a re-analysis of the deposited data

Results flagged for a closer look

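For 6 of the 36 factors (16.7%, against 8.87% of all genes) both knockdown samples lay on 1 side of control and both rescue samples on the other. The knockdown minus rescue difference on the log2 scale was -1.16 for Neurod1, -0.50 for Mef2d and -0.31 for Neurog2, which were below control in the knockdown and above it in the rescue. It was 0.42 for Zfpm2, 0.30 for Nfia and 0.23 for Pou3f3, which were above control in the knockdown and below it in the rescue. None of the 6 differences passed limma's test (adjusted p = 0.213 for Neurod1, 0.528 for Mef2d, 0.884 for Neurog2, 0.685 for Zfpm2, 0.881 for Nfia and 0.985 for Pou3f3). For Neurog2 the value of knockdown repeat 2 was -0.0015, and in rescue repeat 2 Nfia lay at -0.0115 and Pou3f3 at -0.0134. The side of control of these values is not settled by these arrays. Neither probe set of Nfia held the pattern alone. The first lay at 0.1308 in rescue repeat 2, and the other at -0.0173 in knockdown repeat 2. For Mef2d, 1 of the 2 probe sets lay at -0.0482 in rescue repeat 1.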

How the results depend on the processing

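With the repeat block, 6 factors were called in the knockdown against control, 1 in the knockdown against the rescue and 0 in the rescue against control, and no other call of a factor changed. Over all genes 61 were called in the knockdown against control, 1074 with the repeat block, 94 after quantile normalization, 1272 and 108 without knockdown replicates 1 and 2, and 12 without either rescue replicate. In the rescue against control 0 genes were called, and 176 without either knockdown replicate. Leaving out 1 sample gave 0 to 9 called factors for the knockdown against control and 0 to 4 for the knockdown against the rescue, and only the fit without knockdown replicate 1, where a lone sample is assumed to vary like the others, called any. Quantile normalization, centring on column medians, robust shrinkage, single probe sets and adjustment over fewer genes called 0 factors in each comparison, as did fits of a group's own samples. Over leave-one-out fits, the pan-excitatory median ranged from -0.62 to -0.42 in the knockdown and from -0.11 to -0.0523 in the rescue. The deep-layer median ranged from -0.11 to -0.035 in the knockdown and from 0.0407 to 0.17 for the difference, and the mixed-layer median from -0.11 to -0.0947 in the rescue. With mixed-layer factors counted as pan-excitatory, the knockdown median was -0.25. The cause of these moves was not tested. Of 214 alternative values for 20 differences at an unadjusted p under 0.05, 0 changed sign. Only differences with the same sign in both repeats entered this count, so leaving out 1 sample could not reverse a mean against control. Several settings, such as the block and robust shrinkage, leave the value itself unchanged. The count of 0 was thus largely fixed in advance. A filter on dim probe sets could not be run, because ratios hold no intensity.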

Other observations

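Regulators that carry calcium signals to transcription were listed separately from the 36 factors. Of 16 genes (calmodulin-binding CAMTA factors, CREB and its coactivators, NFAT factors, Srf and the class IIa histone deacetylases that bind MEF2), 0 passed limma in any comparison (3 lower and 1 higher in the knockdown in the blocked fit), and the median was -0.09 in the knockdown and -0.11 in the rescue. Camta1 lay at -0.18 and -0.36 in the knockdown and at 0.08 and 0.32 in the rescue, and Camta2 at -0.41 and -0.37 in the knockdown, against -0.30 and -0.05 in the rescue. Chosen after its values were seen, Hdac9, a MEF2 corepressor, lay at -0.78 and -0.61 in the knockdown and at 0.09 and 0.27 in the rescue (knockdown minus rescue -0.88, limma adjusted p = 0.202; 0.0427 with the block). This was the lowest difference of the 16 genes, which had a median of -0.03, with 8 below 0 and 8 above it. Hdac4, also chosen after its values were seen, was below control in all 4 samples, at -0.52 and -1.35 in the knockdown, against -0.26 and -1.004 in the rescue.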
